A study of Drosophila melanogaster with 4 samples.

Results

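The bithorax complex on chromosome arm 3R holds the homeotic genes Ubx, abd-A and Abd-B. CBP-bound regions were taken as members when they overlapped the window of 330 kb from 12.48 to 12.81 Mb on 3R (release 5 of the genome), which covers the genes and their regulatory DNA. The gd7 list gave 24 members of its 1939 regions, and the wild-type list gave 33 of its 3013. The members were chosen by position alone. CBP, the fly ortholog of the co-activators CBP and p300 (gene nejire), was mapped in whole embryos by ChIP-seq, the sequencing of DNA recovered with an antibody to CBP from chromatin. The embryos were 2 to 4 hours old. The gd7 embryos came from mothers homozygous for gd7, a mutation in the protease gene gastrulation defective, so that Dorsal, a Rel-family transcription factor, stays out of their nuclei and all cells become presumptive dorsal ectoderm. The wild-type embryos came from w1118 flies and hold presumptive mesoderm, neuroectoderm and dorsal ectoderm. Each genotype had 1 CBP library, pooled from several immunoprecipitations, and 1 input library. No difference below therefore has a replicate check, and no test between the genotypes was possible. Because whole embryos were used, CBP bound in fewer cells cannot be told apart from less CBP bound per cell.

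Ubx, abd-A and Abd-B encode homeodomain transcription factors that give thoracic and abdominal segments their identity along the anterior-posterior axis. Ubx acts in the posterior thorax and the first abdominal segment, abd-A in the anterior and middle abdomen, and Abd-B in the posterior abdomen and genitalia. Their regulatory DNA is arranged along the chromosome in the order of the segments it serves, with segment-specific enhancers, boundary elements and Polycomb response elements that keep the genes silent outside their domains. In the release 6 gene table the order towards higher positions is Ubx, the non-coding RNA gene bxd, abd-A, the non-coding genes iab8 and iab4, which give rise to the microRNAs mir-iab-8 and mir-iab-4, and Abd-B. No release 5 annotation was used, so single regions were not assigned to a gene, a promoter or a named element. They are given by position, and the low end of the window is called the Ubx end and the high end the Abd-B end.

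The value of a region is the authors' log2 ratio of ChIP over input around its highest point, so that 1 unit is a 2-fold change. Only the highest 5% of the values along the genome entered the lists. The lowest value of any region was 1.93 in gd7 and 1.88 in wild-type. A region listed in 1 genotype alone had a lower signal, or too short a stretch of signal, in the other, and no value is known for it there. The lists hold no read counts, so the depth behind each region is unknown.

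CBP regions were denser in the complex than on the rest of the arm in both genotypes, and gd7 had fewer of them. In gd7 the members stood at 7.27 per 100 kb, against 1.67 per 100 kb on the rest of 3R. In wild-type they stood at 10 per 100 kb, against 2.54 on the rest of the arm. When 3R was cut into 83 stretches of 330 kb with the complex as one of them, 2 others held at least as many gd7 regions, and none held as many wild-type regions. The other stretches had a median of 4.5 regions in gd7 and 8 in wild-type. Together the members covered 9835 bp in gd7 and 13475 bp in wild-type, or 2.98% and 4.08% of the window. Their median length was 385 bp in gd7 and 350 bp in wild-type. Just outside the window, the nearest regions at the Ubx end were at 2.77 in gd7 and 2.41 in wild-type, both ending 23220 bp below it. At the Abd-B end the nearest were 68285 bp away in gd7, at 2.41, and 45605 bp away in wild-type, at 2.36. The members closest to these ends had 2.09 and 2.44 in gd7, against 1.93 and 2.31 in wild-type.

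**Figure D1:**
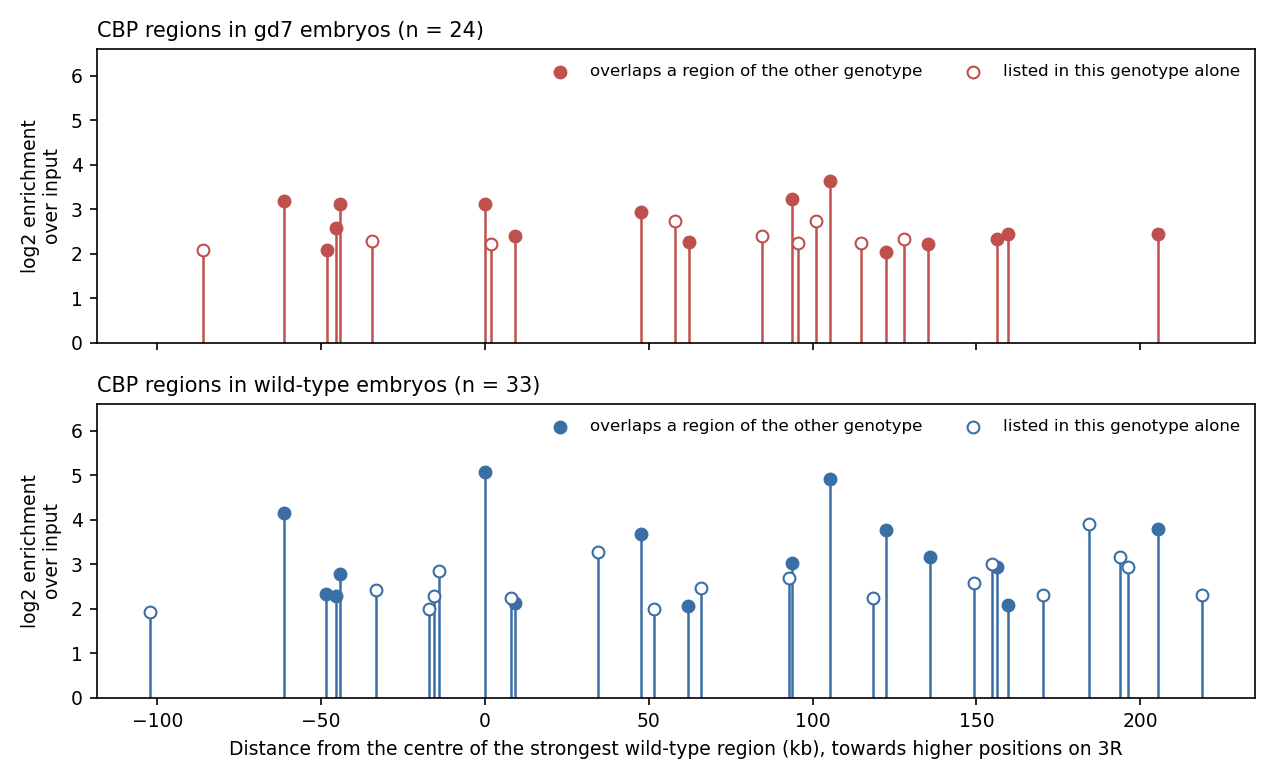
CBP regions of the bithorax complex in gd7 (top, n = 24) and wild-type (bottom, n = 33) by distance of their centre from the strongest wild-type region, in kb, with log2 enrichment over input on the y axis. Filled points overlap a region of the other genotype, open points do not, and the tallest stem is 3.64 in gd7 and 5.07 in wild-type.

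In wild-type the complex carried some of the strongest CBP regions of the genome, whereas in gd7 its regions were of middling strength. The members had a median of 2.41 in gd7, below the 2.53 of the whole gd7 list. In wild-type their median was 2.69, above the 2.40 of the whole wild-type list. None of the 100 strongest gd7 regions lay in the complex, against 6 of the 100 strongest wild-type regions. The share of members at or above 3 was 20.8% in gd7, against 22.6% over the whole gd7 list. In wild-type it was 36.4%, against 16.3% over the whole list. The strongest members thus set the genotypes apart more than the number of regions did.

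The strongest wild-type region of the complex, from 12589325 to 12590165, was also the first of the whole wild-type list. In gd7 embryos it was listed from 12589640 to 12590095, wholly inside the wild-type region, with centres 70 bp apart. Its value was 3.11 in gd7, where it ranked 361 of 1939, and 5.07 in wild-type. The difference of -1.96 is a value 3.89-fold lower in gd7. It was the lowest of the 1217 differences at regions shared by the lists. A smaller region with no wild-type counterpart stood 1469 bp beyond it in gd7, from 12591565 to 12591845, at 2.21.

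The next strongest wild-type region, from 12695025 to 12695480, ranked 3 in its list and was the strongest of the complex in gd7. Both lists placed its centre at 12695200. Its value was 3.64 in gd7 and 4.92 in wild-type, a difference of -1.29, or 2.44-fold lower in gd7. In gd7 it ranked 103. The highest point of the complex therefore differed between the lists, at 12695200 in gd7 and at 12589955 in wild-type.

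Near the Ubx end, the region at 12528040 in gd7 and 12528425 in wild-type had 3.19 in gd7 and 4.16 in wild-type. The gd7 region was longer, at 1015 bp against 665 bp in wild-type, although its value was lower by 0.97 on the log2 scale. This was the only one of the 5 strongest wild-type regions of the complex that was longer in gd7. The remaining 2 of those 5 lay near the Abd-B end. The region from 12795230 to 12796175 had 2.44 in gd7 and 3.80 in wild-type, and its length was 245 bp in gd7 and 945 bp in wild-type. The region from 12774335 to 12774720, with 3.91 in wild-type, was not listed in gd7, where the nearest region lay 20580 bp away.

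The other strong gd7 regions were close in value to their wild-type partners. The region from 12683335 to 12683860 had 3.22 in gd7 and 3.04 in wild-type, with the same centre in both. The region from 12545575 to 12546030 had 3.11 in gd7 and 2.77 in wild-type. These were the only members with a gd7 value of 3 or more that were higher in gd7, by 0.19 and 0.34 on the log2 scale. All 5 gd7 members of that strength had a wild-type region, next to 85.0% over the whole gd7 list, and 3 of the 5 were lower in gd7. Over the whole gd7 list, 23.1% of the shared regions at or above 3 were lower in gd7, and their median difference was 0.61, against -0.97 for the 5 members.

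Of the wild-type members, 15 overlapped 1 gd7 region each, and 18 (54.5%, 95% Wilson interval 38.0 to 70.2%, for counting error alone) had none. Over the whole wild-type list 59.6% had none. Of the gd7 members, 9 (37.5%, 21.2 to 57.3%) had no wild-type region, next to 37.3% over the whole gd7 list. The share of regions found in both genotypes was thus near that of the whole lists. The centre of the gd7 region lay inside the wild-type region at 15 of the 15 pairs, next to 87.3% of all shared regions. The centres were 0 to 175 bp apart at 14 pairs, with a median of 70 bp, which is also the median over all shared regions. At the other pair, from 12724705 to 12725825 in wild-type, they were 648 bp apart, so that the values there come from different points. That region had 2.21 in gd7 and 3.16 in wild-type. Among the pairs, 6 gd7 regions lay wholly inside their wild-type region, and 2 wild-type regions lay wholly inside their gd7 region.

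Where both genotypes had a region, values lower in gd7 reached larger differences than values higher in gd7. The gd7 value was lower at 9 of the 15 pairs, which is 60.0% (35.7 to 80.2%), an interval that holds the 46.8% of all shared regions. The median difference was -0.62, with a range from -1.96 to 0.34, next to a median of 0.06 over all shared regions. The 95% binomial interval of that median ran from -1.29 to 0.28 and reflects only the spread among the pairs. A value more than 2-fold lower in gd7 was found at 4 pairs (26.7%, 10.9 to 52.0%), next to 5.92% of all shared regions. All regions with so low a gd7 value had 3 or more in wild-type, and the complex is rich in such regions. At or above 3 in wild-type the counts were 4 of 8 pairs in the complex and 72 of 358 shared regions in the whole list. That class has no upper limit, and the 8 pairs include the regions ranked 1 and 3 of the wild-type list. These counts are thus not matched for strength. A value more than 2-fold higher was found at 0 pairs (0 to 20.4%), an interval that holds the 10.2% of all shared regions.

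Besides the regions at 12589325, 12695025 and 12795230, the pair more than 2-fold lower was the wild-type region from 12712175 to 12712560. It had 2.04 in gd7, close to the lowest listed value, and 3.78 in wild-type. Its difference of -1.74 ranked 3 among all shared regions, and its gd7 region was 210 bp long, the shortest length in the lists. Smaller differences were seen at 12637415, with 2.93 in gd7 and 3.68 in wild-type, and at 12746020, with 2.33 in gd7 and 2.95 in wild-type. At 12541305 the gd7 value was lower by 0.25, with 2.09 in gd7 and 2.34 in wild-type.

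**Figure D2:**
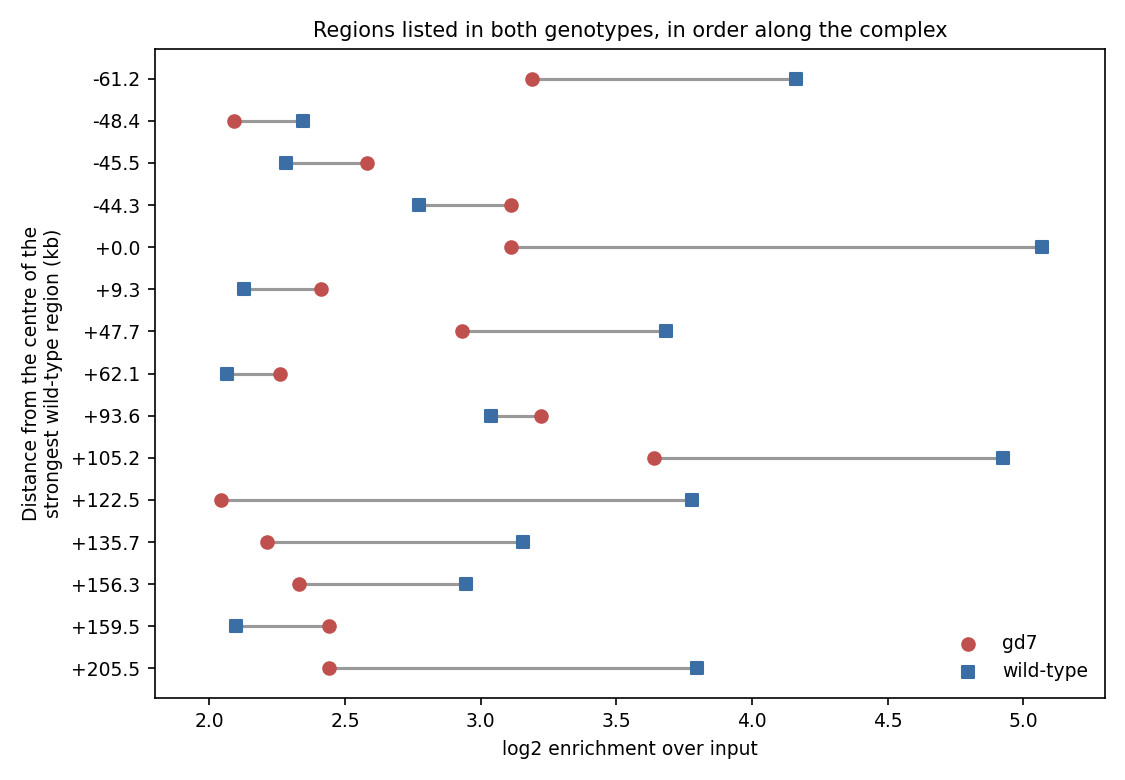
The 15 regions listed in both genotypes, in order along the complex, with log2 enrichment over input in gd7 (circles) and wild-type (squares), each row labelled with its distance in kb from the strongest wild-type region. The gd7 value lies below the wild-type value at 9 rows, by up to 1.96, and above it at 6 rows, by at most 0.34.

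The pairs that were higher in gd7 were mostly weak in wild-type. The largest such differences were 0.34 at 12749345, with 2.44 in gd7 and 2.10 in wild-type, and 0.34 at the region of 12545435 described above. Its neighbour at 12544280 had 2.58 in gd7 and 2.28 in wild-type. At 12599090 the values were 2.41 in gd7 and 2.13 in wild-type. In gd7 that region reached 805 bp, against 280 bp in wild-type. At 12652010 they were 2.26 in gd7 and 2.07 in wild-type. The difference was thus lower where the wild-type value was higher. Part of this is built in, because the wild-type value is subtracted to give the difference. In these lists a shared region that is weak in wild-type leaves no room for a much lower gd7 value. Of the wild-type members at or above 3, 8 of 12 (66.7%) had a gd7 region, next to 73.1% over the whole list. Those 8 had a median difference of -1.13, and 7 were lower in gd7. Over the whole wild-type list, shared regions at or above 3 had a median of -0.57 and 80.2% were lower in gd7. When the class was set by the gd7 value instead, the whole-list median was 0.61. The class of 3 or more has no upper limit, so members and list are not matched for strength within it. Of the members under 2.5, 5 of 15 (33.3%) had a gd7 region, next to 28.8% over the whole list. Those 5 had a median difference of 0.28, next to 0.41 over the whole list.

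**Figure D3:**
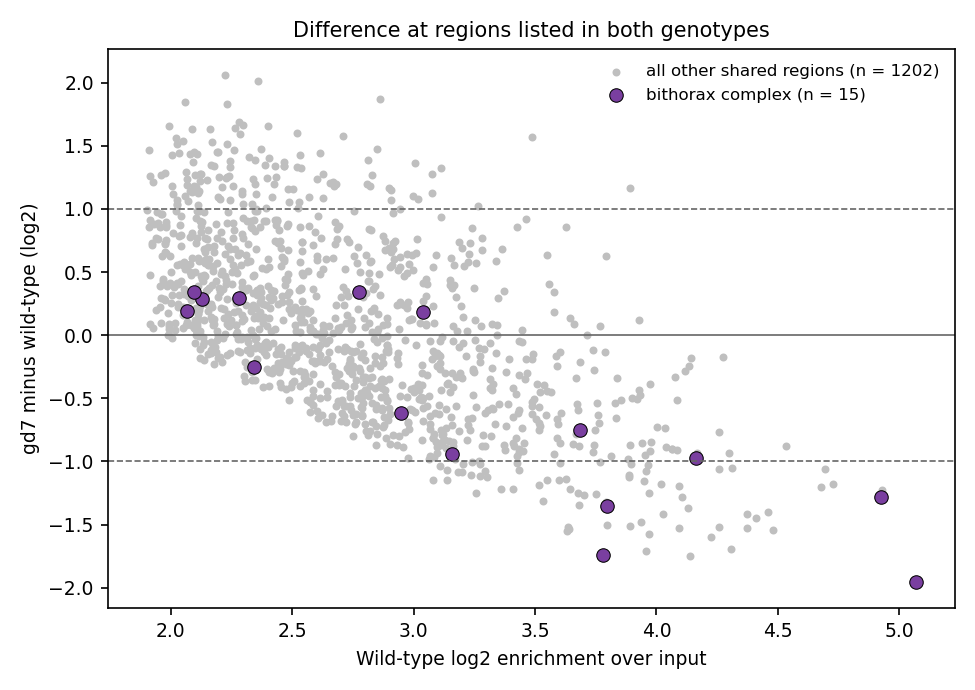
Difference of gd7 minus wild-type (log2) against the wild-type value for the 15 shared regions of the complex and for all 1202 other shared regions, with dashed lines at 2-fold. The empty lower left corner reflects the cut-off of the gd7 list, and the lowest point of the plot, at -1.96, is the strongest wild-type region.

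The wild-type regions with no gd7 region had values from 1.93 to 3.91, with a median of 2.44. Of these 18, 10 were under 2.5 and so near the cut-off. In 5 (27.8%), with 9.47% for all such wild-type regions, the value was more than 2-fold above the lowest gd7 region. There gd7 was more than 2-fold lower unless the signal was missed for its length. Only regions above 2.93 in wild-type can meet this rule, and 36.4% of the members had 3 or more, against 16.3% of the whole list. The 9.47% is thus not matched for strength. After the region at 12774335 the strongest was the one from 12624220 to 12624710, at 3.29. The region from 12783540 to 12783750 followed at 3.17. The other 2 of the 5 had 3.01, from 12744795 to 12745145, and 2.95, from 12785990 to 12786410. The first of these lay 1050 bp from a gd7 region. In all, 3 of the 18 had a gd7 region within 1 kb, the closest at 245 bp, and the median gap was 9660 bp.

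The gd7 regions with no wild-type region were weaker, with values from 2.09 to 2.75. The strongest, from 12647845 to 12648230 and from 12690580 to 12691245, both had 2.75, and the next, from 12674480 to 12674865, had 2.41. None of the 9 exceeded the lowest wild-type region by more than 2-fold (0 to 29.9%). That interval holds the 12.6% of all gd7 regions found alone. They lay mostly in the middle of the complex, where 5 of them stood between 12590000 and 12699999.

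The members were spread differently along the complex in the genotypes, and the Abd-B end was the part where gd7 had the fewest for its wild-type number. In 3 sections of 110 kb from the Ubx end to the Abd-B end, gd7 had 7, 10 and 7 regions. Wild-type had 10, 10 and 13. Over the whole lists gd7 also had fewer regions, 1939 against 3013 in wild-type, whereas the middle section had equal numbers. Each section had 5 shared pairs. The Ubx end and the middle each had 5 of 10 wild-type regions with no gd7 region, and the Abd-B end had 8 of 13. Over the whole wild-type list 59.6% had none, so the share at the Abd-B end was near that of the list. Of the 5 such regions more than 2-fold above the lowest gd7 value, 4 lay in the Abd-B section, 1 in the middle and 0 in the Ubx section.

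**Figure D4:**
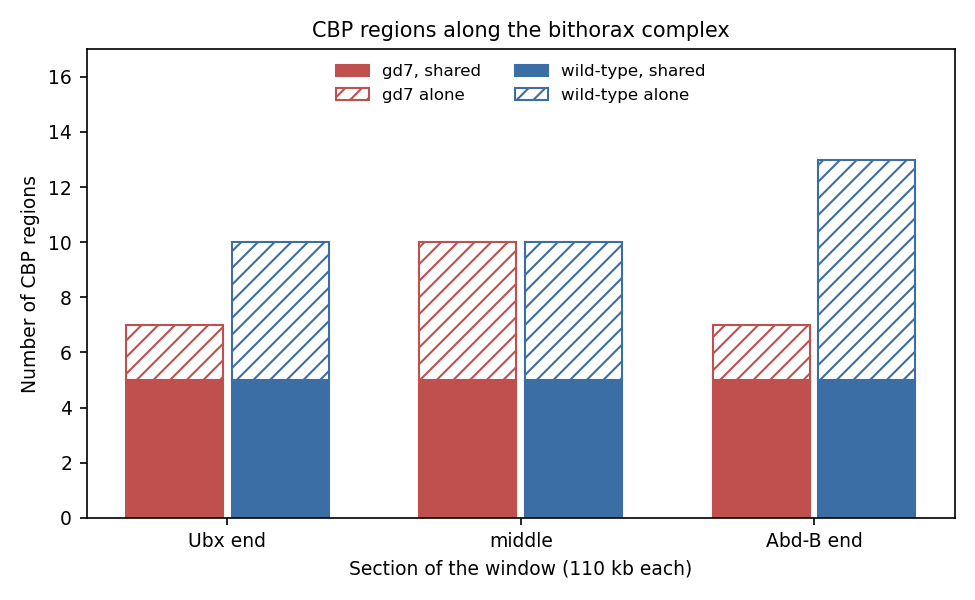
Number of CBP regions in each 110 kb section of the window in gd7 (left bars) and wild-type (right bars), divided into regions shared with the other genotype (filled) and listed alone (hatched). Each section has 5 shared regions per genotype, and the Abd-B section has 7 regions in gd7 and 13 in wild-type.

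In the Abd-B section the values differed as well as the numbers. The strongest gd7 region there, at 12749380, had 2.44 in gd7, and its wild-type partner was weaker, as given above. The strongest wild-type region, at 12774335 with 3.91, was another one and was not listed in gd7. The medians of all regions there were 2.33 in gd7 and 2.95 in wild-type. At its shared pairs the median difference was -0.94, and 4 of 5 were lower in gd7. In the middle section the medians were 2.58 in both genotypes, the median difference was 0.19, and 2 of 5 pairs were lower in gd7. In the Ubx section the medians were 2.58 in gd7 and 2.38 in wild-type, the median difference was -0.25, and 3 of 5 pairs were lower. The strongest wild-type region counts in the Ubx section by 45 bp. With it placed in the middle section, the median differences were 0.02 at the Ubx end and -0.28 in the middle. This division follows no boundary of the complex, and the differences between sections were not tested.

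The longest stretches without CBP regions lay partly in different places. In gd7 the longest was 45.6 kb, from 12749696 to 12795299, and 4 wild-type regions lay wholly inside it, among them those at 12774335, 12783540 and 12785990. The next, of 37.8 kb from 12599616 to 12637449, had 1 wild-type region wholly inside, at 12624220. The rest of it was largely empty in wild-type too, with a stretch of 24.8 kb from 12599371 to 12624219. A further one in gd7, of 34.1 kb, from 12555551 to 12589639, ended at the strongest wild-type region and also held 4 wild-type regions. Of these, 3 stood together at 12572700, 12574310 and 12575745, with 2.00, 2.28 and 2.86 in wild-type. In wild-type the longest stretch was 40.7 kb, from 12487686 to 12528424, with 1 gd7 region wholly inside it, at 2.09. Another of 26.7 kb, from 12656141 to 12682809, also had 1 gd7 region wholly inside. Of the 3 longest stretches of each genotype, those with 4 regions of the other list were both in gd7. The wild-type list also had more members that could fall in a stretch, 33 against 24 in gd7.

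The genes of the Antennapedia complex, which holds homeotic genes of the head and thorax and the segmentation gene ftz, were set beside the bithorax complex. Their wild-type regions were taken by the nearest gene in the study's own table, which gave 17 regions for lab, pb, Dfd, Scr, ftz and Antp. Of these 14 had a gd7 region, next to 40.4% of the whole wild-type list. Their median difference was -0.78, and 9 were lower in gd7, next to 46.8% of all shared regions. More than 2-fold lower were 5 and more than 2-fold higher 0, next to 5.92% and 10.2% of all shared regions. Those 5 all had 3 or more in wild-type, where 72 of 358 shared regions of the whole list were that much lower. The other shared regions of this set at or above 3, near lab and Scr, had differences of -0.86 and -0.90. Strength was not matched within that class, and the region near Dfd, among the 5, had 4.68 in wild-type. The largest difference was at a region nearest to Antp, from 2729195 to 2729510 on 3R, with 2.39 in gd7 and 4.14 in wild-type. Of 16 Polycomb group genes, which encode repressors of homeotic genes, 5 were the nearest gene of a region, with 8 wild-type regions in all. Of these, 4 had a gd7 region, and they went both ways. Near Psc the values were 3.27 in gd7 and 4.00 in wild-type at one region, and 3.87 in gd7 and 3.23 in wild-type at the other. Near Su(z)2 they were 2.89 in gd7 and 3.67 in wild-type at one region, and 3.44 in gd7 and 2.81 in wild-type at the other. The 4 with no gd7 region had 4.29 in wild-type near RYBP, 3.82 near Su(z)2, 2.20 near Pc and 1.93 near Scm. The table was used for part of the genome only, so the Polycomb count is incomplete, and the Antennapedia regions were chosen by another rule than the members.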

How the data were processed

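Lists of CBP ChIP-seq regions from 2 genotypes were used, with 1 CBP library and 1 input library each. The authors aligned reads to genome release 5, smoothed the log2 ratio of ChIP over input, joined the highest 5% of values into regions and deposited 1 list per genotype. They did not normalize the genotypes to each other. The deposited log2 values lie below the authors' enrichment by a constant, 1.93 in gd7 and 1.88 in wild-type, found from regions also in the study's table of peaks (170 of 1939 in gd7 and 1999 of 3013 in wild-type, largest deviation 5.0e-06) and added back. The lists hold no read counts, so precision per region is unknown.

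A shared region overlapped one of the other list by 1 bp or more, and its difference is the highest such gd7 value minus the wild-type value. The 2-fold limits are those of the study but were applied here to shared regions only. The study took a gd7 value within every wild-type region, so its classes have another basis. Python 3.11.15 with numpy 2.4.6, pandas 2.3.3, scipy 1.17.1 (intervals) and matplotlib 3.10.9 was used. Counts were checked with bedtools 2.31.1 and on simulated regions. Described in full are the 5 strongest regions per genotype, the 5 largest differences in each direction and the 3 strongest found in 1 genotype alone. Other regions were named after their values were seen. The members, gene lists and rules were chosen with earlier results of these data known. Alternatives changed the overlap rule, cut-off, window ends, scale, direction of comparison and class limit. The release 6 gene table gave names and gene order only.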

Additional observations from a re-analysis of the deposited data

How the results depend on the processing

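Counts moved by more than 1.5 times with the cut-off and the class limit. When both lists were limited to values of 2.5 or more, the window held 9 gd7 and 18 wild-type regions, and 2 of the shared ones passed the 2-fold limit as lower in gd7. With a limit of 1.5-fold, 8 shared regions were lower and 0 higher. The other 52 recomputed values moved by at most 1.5 times, or stayed inside the 95% interval of their main value. The median difference of shared regions kept its sign, between -0.86 at the stricter cut-off, with 6 pairs, and -0.44 with centres within 200 bp, with a window shortened by 20 kb at each end, or with only those pairs whose centres each lay inside the other region. The last setting was chosen after seeing the data. The number more than 2-fold lower was 5 with the deposited values as they are and 6 when differences were centred on the median of all shared regions. No paired analysis was possible because each genotype had 1 CBP library, and for the same reason no replicate could be left out. Falls to below the list's lowest value are not measured, and depth is unknown.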
